A study of Mus musculus with 12 samples.

Results

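Skin of Thy-1–KO mice that received PBS was compared with skin of WT mice that received PBS, which is the genotype difference in skin that was not made fibrotic. The comparison was set by the sample labels alone and used 6 of the 12 mice of the series: KO PBS mice 136, 137 and 139 and WT PBS mice 159, 160 and 161. The labels give the strain of all of them as C57/BL6 and the tissue as skin. Per the methods, PBS was injected daily under the skin of the back and skin was taken on day 21, the knockout mice were females of 8 to 12 weeks, and their line had been backcrossed to C57BL/6. Sex and age of the WT mice are not given separately, and Xist, which marks female cells, was at 579 to 694 CPM in all 6 mice. The WT mice are described in one place as C57BL/6J from a supplier and in another as littermates, so litter and source could not be settled here. The other 6 mice received bleomycin in place of PBS (KO BLM mice 141, 143 and 144, WT BLM mice 145, 146 and 147). They are separate animals and were used to see what the same genotype contrast gave in mice outside the comparison. They also entered the fit from which the spread was estimated.

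Thy-1, also called CD90, is a small glycoprotein held at the cell surface by a lipid anchor. It is carried by fibroblasts, neurons and, in mice, T cells, and it binds integrins and steers signalling through Src-family kinases. Mouse dorsal skin is also a tissue in motion, because hair follicles cycle together between growth and rest, and the follicle keratins, pigment genes and dividing matrix cells of growing hair come and go with that cycle, while muscle and fat lie beneath. In whole skin, fewer cells of a type and less RNA per cell cannot be told apart.

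The libraries were of similar depth, with 28131770 to 38890450 counts on genes per PBS mouse. The counts covered 55453 genes listed by symbol, of which 34689 had a count in any mouse and 18311 had enough to be tested. Levels are given as CPM, that is, counts scaled so that every TMM-normalised library has the same total. A gene was called where the quasi-likelihood test of edgeR, run on all 12 mice with 1 mean per group, gave an adjusted p (Benjamini-Hochberg) below 0.05. The labels name each mouse but not litters, cages or preparation days, so p-values measure the spread between these mice, which was a biological coefficient of variation of 34.9%. Keratinocyte and fibroblast genes of skin (Krt5, Krt14, Krt10, Krt1, Trp63, Col1a1, Col3a1, Dcn) summed to 11900 to 27800 CPM in the 6 mice. One library stood apart from its group. In KO PBS mouse 136 the 31 hair keratin and inner root sheath genes summed to 84100 CPM, against 100 and 425 CPM in KO PBS mice 137 and 139 and 53500 to 77500 CPM in the WT PBS mice, so results are given with and without it where it matters.

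Thy1 itself (chr9:44043384-44048579, plus strand) was lower in the knockout mice but not near zero. The WT PBS mice had 104, 115 and 150 CPM and the KO PBS mice 45.6, 96.9 and 77.4 CPM. All 3 KO mice lay below all 3 WT mice, with mouse 137 just under the lowest of them. The means were 123 ± 23.7 CPM (SD, n = 3) and 73.3 ± 25.9 CPM (SD, n = 3), a 1.68-fold difference that did not pass the threshold (log2 fold change -0.75, standard error 0.30, edgeR adjusted p = 0.224). The file has 1 count for the whole gene, and where within Thy1 the knockout reads lie was not tested. Of the 105 genes annotated within 1 Mb of Thy1, 53 were tested and 0 were called by edgeR. At an unadjusted p under 0.05 were 8 of the 53, where 20.4% of all genes tested were. DESeq2 called 1, where it called 3.69% of all genes it tested. This was Gm30373, a gene model of unknown role, at 0.866 to 1.22 CPM in WT PBS and 0.0894 to 0.332 CPM in KO PBS (log2 fold change -2.29, standard error 0.68, edgeR adjusted p = 0.204).

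Across all genes, 12 were called between KO PBS and WT PBS, 7 higher and 5 lower in KO PBS, which is 0.0655% of the 18311 tested (0.0382% higher and 0.0273% lower). In all 12 the 3 KO mice and the 3 WT mice did not overlap, as in 18.9% of the genes tested. DESeq2 called 746 genes (3.69% of the 20198 it tested), 461 higher (2.28%) and 285 lower (1.41%), and these included all 12. At an unadjusted p under 0.05 edgeR gave 3727 genes (20.4%), 2307 higher (12.6%) and 1420 lower (7.75%). The number rested on mouse 136: without it 6870 genes were called (36.7% of 18739), 3342 higher (17.8%) and 3528 lower (18.8%), with all 12 among them in the same direction. Leaving out KO PBS mouse 139, WT PBS mouse 159, WT PBS mouse 161 or WT BLM mouse 145 left 6 calls each, and leaving out WT PBS mouse 160 or WT BLM mouse 147 left 7. The 12 genes fall into 3 kinds: a TNF receptor gene, genes and pseudogenes that have a near-identical copy elsewhere, and single genes of different functions. The plot of the 12 genes by mouse shows how most of them switched between nearly absent and present.

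**Figure D1:**
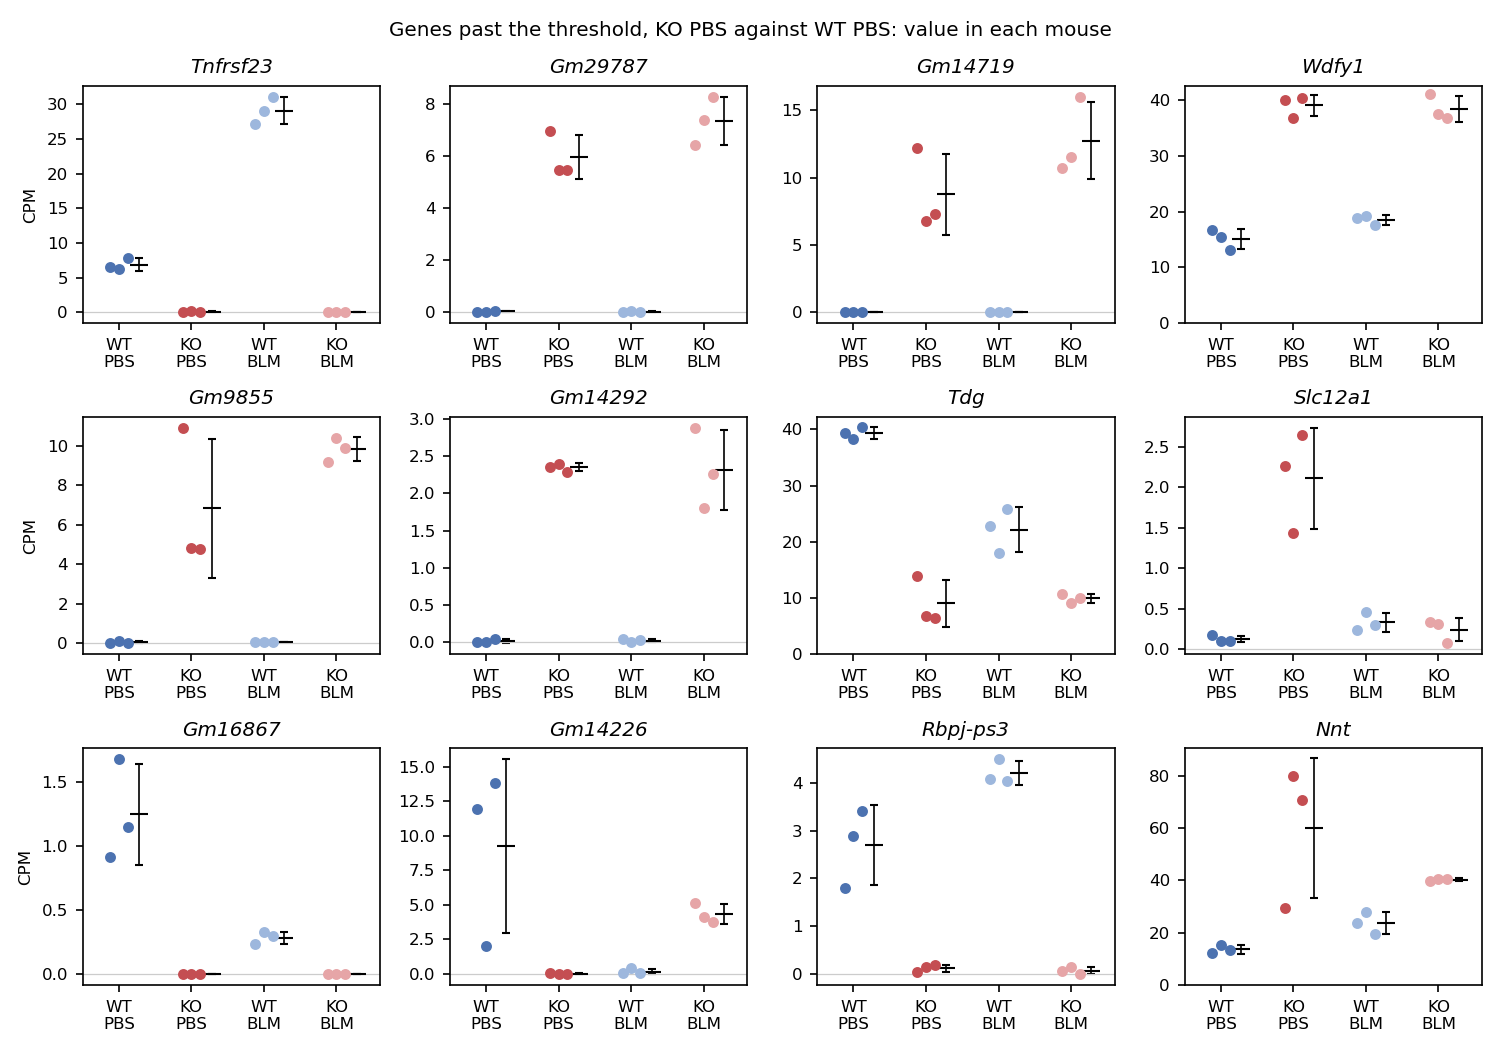
CPM of the 12 called genes in each of the 12 mice (points; WT PBS dark blue, KO PBS dark red, WT BLM light blue, KO BLM light red), with the mean and SD of each group of 3 beside the points and a separate linear axis per gene. Tnfrsf23 sat at 6.22 to 7.9 CPM in WT PBS and at most 0.143 CPM in KO PBS, whereas Wdfy1 went from 13.1 to 16.8 CPM up to 36.9 to 40.4 CPM.

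The gene of lowest p-value was Tnfrsf23 (chr7:143665809-143685872, minus strand), which encodes a decoy receptor for the death ligand TRAIL. WT PBS mice 159, 160 and 161 had 192, 189 and 310 counts on it, or 6.49, 6.22 and 7.9 CPM. KO PBS mice 136, 137 and 139 had 0, 5 and 3 counts, or 0, 0.143 and 0.0894 CPM. The groups were far apart and the knockout mice were close to no reads at all (log2 fold change -6.35, standard error 0.47, edgeR adjusted p = 0.00079). Tnfrsf26 (chr7:143607659-143628722, minus strand), a nearby TNF receptor gene, was chosen after its values were seen. It had 1.18, 1.22 and 0.764 CPM in the WT PBS mice and 0, 0.0286 and 0.209 CPM in the KO PBS mice, again without overlap (log2 fold change -3.64, standard error 0.76, edgeR adjusted p = 0.175, DESeq2 adjusted p = 6.53e-05). Tnfrsf22 lies between them. Its levels of 3.68 to 5.11 CPM in WT PBS and 2.39 to 4.46 CPM in KO PBS overlapped (log2 fold change -0.27, standard error 0.26, edgeR adjusted p = 0.538). The best match of the Tnfrsf23 transcript to another gene was to Tnfrsf22, with 91.2% identity over 2172 bases. Because Tnfrsf23 had the lowest p of all genes, the 250 bases before its start (chr7:143685876-143686125, minus strand, RefSeq, GRCm38.p6) are shown with CG pairs in capitals.
Tnfrsf23 promoter: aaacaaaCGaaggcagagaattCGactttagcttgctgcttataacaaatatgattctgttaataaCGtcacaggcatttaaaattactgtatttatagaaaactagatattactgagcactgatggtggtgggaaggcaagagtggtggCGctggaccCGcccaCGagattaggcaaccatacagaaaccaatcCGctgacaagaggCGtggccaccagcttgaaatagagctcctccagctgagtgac
The stretch holds 8 CG pairs, where the median of 32851 promoters was 6 and 92.1% had at least 1. No entry for Tnfrsf26 or Tnfrsf22 was found in the promoter table.

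Of the 38 tested genes of the apoptosis and death receptor list Tnfrsf23 was called by edgeR, and Tnfrsf23, Tnfrsf26 and Fas by DESeq2. The tools called 0.0655% and 3.69% of all genes they tested. The median log2 fold change of the list was 0.09, against 0.02 over all genes tested. All 3 KO mice were above all 3 WT mice for 6 members and below for 5, where 8.62% and 10.3% of all genes had these orders. Fas, the receptor of the death ligand FasL and a partner of Thy-1 in cell death, had 3.62, 4.44 and 4.31 CPM in WT PBS and 4.99, 11.3 and 9.5 CPM in KO PBS (log2 fold change 1.06, standard error 0.26, edgeR adjusted p = 0.194, DESeq2 adjusted p = 0.015). Mcl1, a survival factor and the most abundant member, overlapped between the groups (log2 fold change 0.18, adjusted p = 0.431), and its sign turned in a fit that adds the level of the growing-hair genes as a covariate (-0.04), called the hair covariate from here on.

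Of the 12 called genes 5 were processed pseudogenes, intronless copies of a messenger RNA that were inserted elsewhere in the genome, where 1.62% of the tested genes with an annotated class are of this kind (294 of 18162). Gm29787 (chr13:51205263-51206111) is a copy of Cttn, Gm14719 (chrX:49660960-49661299) of Ppdpf, Gm9855 (chr10:42054113-42055306) of Tdg, Gm14292 (chr2:179177425-179177880) of Wtap and Rbpj-ps3 (chr6:46529354-46530794) of Rbpj. A sixth called gene, Tdg, is the parent of one of them. The transcripts matched their parents at 96.2% over 842 bases for Gm29787, 97.7% over 348 for Gm14719, 99.2% over 1194 for Gm9855, 99.3% over 456 for Gm14292 and 99.7% over 1441 for Rbpj-ps3. How the counting assigned reads that fit both places is not given in the sources used here, so the split between copy and parent is uncertain. To show how little separates a read of the parent from one of the copy, the 80 bases with the most differences within 1 coding exon of the parent are set side by side for 4 pairs, from GENCODE M21 transcripts on GRCm38, with differing bases in capitals.
Tdg, chr10:82648578-82648657, plus strand: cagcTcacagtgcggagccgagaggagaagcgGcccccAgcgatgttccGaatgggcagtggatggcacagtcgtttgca
Gm9855, chr10:42054176-42054255, minus strand: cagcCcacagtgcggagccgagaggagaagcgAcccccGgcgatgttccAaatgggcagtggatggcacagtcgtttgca
Rbpj, chr5:53652611-53652690, plus strand: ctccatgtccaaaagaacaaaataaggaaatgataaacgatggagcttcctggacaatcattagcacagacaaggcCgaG
Rbpj-ps3, chr6:46529843-46529922, minus strand: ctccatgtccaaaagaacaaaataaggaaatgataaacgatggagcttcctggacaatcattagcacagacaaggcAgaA
Cttn, chr7:144441706-144441785, minus strand: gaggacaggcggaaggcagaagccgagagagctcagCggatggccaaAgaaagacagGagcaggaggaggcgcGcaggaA
Gm29787, chr13:51205734-51205813, minus strand: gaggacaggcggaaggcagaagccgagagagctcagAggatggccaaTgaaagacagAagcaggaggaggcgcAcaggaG
Wtap, chr17:12980822-12980901, minus strand: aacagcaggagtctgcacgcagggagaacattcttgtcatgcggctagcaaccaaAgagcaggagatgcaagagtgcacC
Gm14292, chr2:179177618-179177697, plus strand: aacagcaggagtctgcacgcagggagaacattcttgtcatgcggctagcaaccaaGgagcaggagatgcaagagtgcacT
These windows hold 4 differing bases for Tdg and Gm9855, 2 for Rbpj and Rbpj-ps3, 5 for Cttn and Gm29787 and 2 for Wtap and Gm14292. For Ppdpf and Gm14719, 0 of the 80 bases differed in any such window.

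Reads on 4 of the copies were found almost only in the knockout mice. Gm29787 had 0, 0 and 2 counts in the WT PBS mice and 209, 191 and 184 counts in the KO PBS mice (at least 64.7-fold higher, against a floor of 3 counts per mouse; edgeR adjusted p = 0.00079). Gm14719 had 0 counts in every WT PBS mouse and 368, 236 and 246 in the KO PBS mice (at least 95.1-fold higher, adjusted p = 0.00079). Gm9855 had 0, 3 and 1 against 328, 169 and 159 counts (at least 74-fold higher, adjusted p = 0.000882). Gm14292 had 0, 0 and 2 against 71, 84 and 77 counts (at least 25.5-fold higher, adjusted p = 0.00289). In each of the 4 the groups were wide apart, and mouse 136, which resembled WT in its hair genes, had reads on the copies like the other knockout mice. The fifth copy went the other way. Rbpj-ps3 had 53, 88 and 134 counts in the WT PBS mice and 1, 5 and 6 in the KO PBS mice (log2 fold change -4.45, standard error 0.62, adjusted p = 0.0391).

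The log2 fold changes of the parents had the opposite sign to those of their copies, and 1 of the 5 parents was called. Tdg (chr10:82629828-82650799), the thymine DNA glycosylase of base excision repair, had 39.4, 38.3 and 40.4 CPM in the WT PBS mice and 13.9, 6.77 and 6.5 CPM in the KO PBS mice (log2 fold change -2.12, standard error 0.27, adjusted p = 0.0246). Every knockout mouse was well below the narrow WT range. Rbpj, the DNA-binding factor of Notch signalling, had 16.7, 16.4 and 23.3 CPM in WT PBS and 34.9, 62.8 and 62.5 CPM in KO PBS, which just missed the threshold (log2 fold change 1.5, standard error 0.22, adjusted p = 0.0551). Ppdpf had 30.2 to 31.6 CPM in WT PBS and 13.4 to 25.3 CPM in KO PBS without overlap (log2 fold change -0.82, adjusted p = 0.198). Cttn, the actin-branching protein cortactin, had 195 to 200 CPM against 127 to 168 CPM, also without overlap (log2 fold change -0.40, adjusted p = 0.208). Wtap, a subunit of the RNA methyltransferase that makes m6A, overlapped between the groups (log2 fold change -0.23, adjusted p = 0.245).

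With each copy added to its parent, as a check chosen after seeing the data, 2 genes were called in all, Tnfrsf23 and Wdfy1. Slc12a1, Gm16867, Gm14226 and Nnt were not summed with any copy and were not called either. The adjusted p of a gene depends on the other genes tested, and this fit no longer held the copies of low p. Adjusted p values of the sums are therefore not directly comparable with those of the parents alone. Added up, Tdg and Gm9855 gave 39.4 ± 1.02 CPM for WT PBS mice and 15.9 ± 7.71 CPM for KO PBS mice (SD, n = 3 each; log2 fold change -1.31, standard error 0.27, adjusted p = 0.193). In the knockout mice 43% of that sum lay on the copy, against 0.105% in WT. Ppdpf and Gm14719 together came to 31.0 ± 0.751 CPM in WT PBS and 26.4 ± 9.65 CPM in KO PBS (SD, n = 3 each; log2 fold change -0.23, adjusted p = 0.519), with 33.3% on the copy in knockout mice. Rbpj and Rbpj-ps3 came to 21.5 ± 4.5 CPM in WT PBS and 53.5 ± 16.1 CPM in KO PBS when added, without overlap and past no threshold (SD, n = 3 each; log2 fold change 1.31, standard error 0.22, adjusted p = 0.161). Here the copy held 12.5% of the sum in WT and 0.221% in knockout mice. The copies of Cttn and Wtap were a small part of their sums, 3.84% and 4.67% in knockout mice. The stacked plot of copies and parents shows these shares mouse by mouse.

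**Figure D2:**
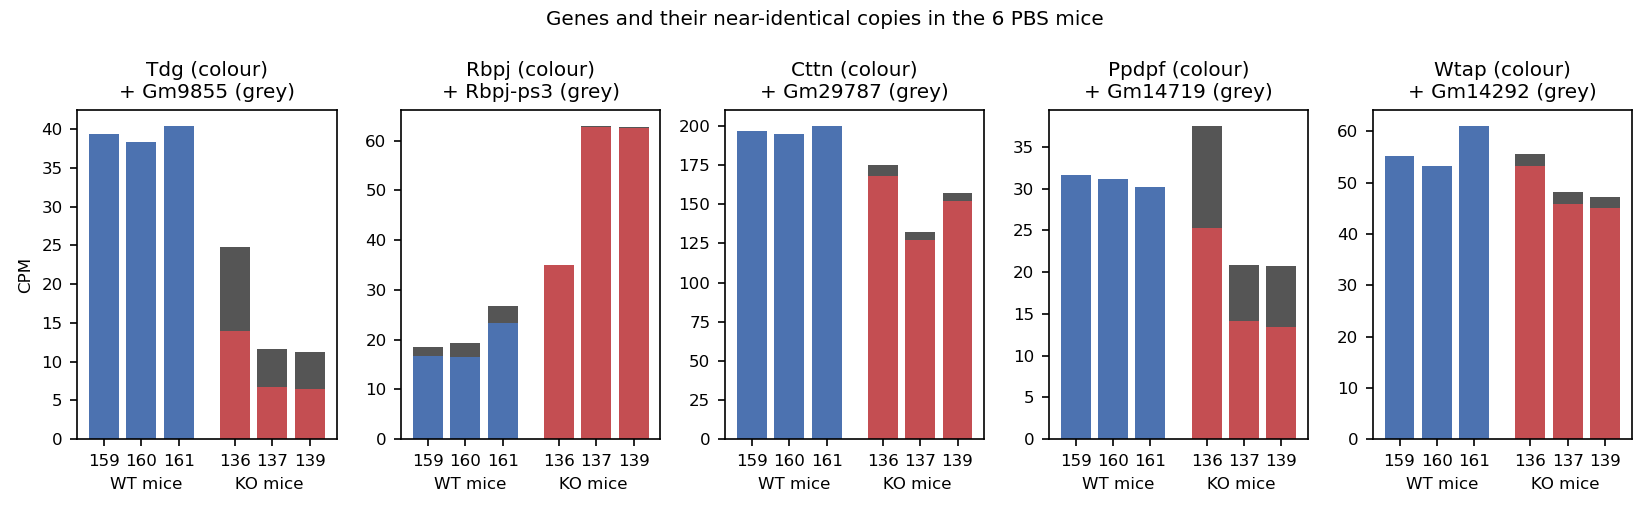
CPM of 5 parent genes (blue in WT PBS mice, red in KO PBS mice) with their near-identical copies stacked on top in grey, 1 bar per mouse and 1 linear axis per pair. The grey part is large for Tdg and Ppdpf in the 3 KO mice (43% and 33.3% of the summed mean) and is seen in WT mice for Rbpj, where it is 12.5%.

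The single genes that were called had different functions. Wdfy1 (chr1:79702262-79776143, minus strand), an adaptor protein that binds endosomal lipid, had 16.8, 15.4 and 13.1 CPM in WT PBS and 40.1, 36.9 and 40.4 CPM in KO PBS. Both groups were tight, and mouse 136 was no exception (log2 fold change 1.38, standard error 0.12, adjusted p = 0.000882). Mrpl44, which overlaps its first bases on the other strand, was at 24.7 to 25.3 CPM in WT PBS and 25.2 to 27.1 CPM in KO PBS (log2 fold change 0.04, adjusted p = 0.813), and Ap1s3 on its other side had a log2 fold change of -0.27 (adjusted p = 0.389). Nnt (chr13:119335527-119409257, RefSeq, GRCm38.p6), the mitochondrial enzyme that makes NADPH from NADH, had 12.1, 15.3 and 13.5 CPM in WT PBS and 29.5, 79.9 and 70.6 CPM in KO PBS. Every knockout mouse was higher, and mouse 136 least so (log2 fold change 2.14, standard error 0.31, adjusted p = 0.0494). As background, the C57BL/6J substrain is known to carry a deletion in Nnt that other C57BL/6 substrains lack, and whether the 2 groups differ in this was not tested. Slc12a1, the sodium-potassium-chloride transporter best known from the kidney, had 5, 3 and 4 counts in the WT PBS mice and 68, 50 and 89 in the KO PBS mice, or 0.123 ± 0.0397 and 2.11 ± 0.625 CPM (SD, n = 3 each; log2 fold change 4.07, standard error 0.52, adjusted p = 0.0246).

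A pair of gene models fell to the floor in the knockout mice. Gm16867 (chr14:69363504-69503362, minus strand) had 27, 51 and 45 counts in the WT PBS mice and 0 in each KO PBS mouse, which makes it at least 13.6-fold lower (adjusted p = 0.0246). It shares 2846 bases at 100% with Gm27177 and overlaps Entpd4, which was at 0 in every PBS mouse, so where its reads belong is uncertain. Gm21451, a pseudogene inside it on the other strand that was chosen after its values were seen, was at 0.0987 to 0.229 CPM in WT PBS and at 0 in all 3 KO PBS mice (adjusted p = 0.169). Gm14226 (chr2:155018266-155027104, plus strand), which lies within the span of the agouti coat colour gene a on the same strand, had 351, 62 and 543 counts in the WT PBS mice and 2, 0 and 0 in the KO PBS mice (at least 101-fold lower, adjusted p = 0.0355). The WT mice differed widely among themselves, and the lowest was still far above the knockout mice. The gene a was at 0.164 to 0.357 CPM in WT PBS and 0.565 to 0.800 CPM in KO PBS, without overlap (log2 fold change 1.44, adjusted p = 0.213).

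How firmly the 12 were called differed. Leaving out each of the 6 PBS mice in turn, Tnfrsf23, Gm29787, Gm14719, Wdfy1, Gm9855 and Gm14292 were called in 6 of 6 fits, with adjusted p of at most 0.0262. When the 6 PBS mice were fitted without the bleomycin mice, 0 of the 12 genes were called by edgeR, these 6 included, with adjusted p of 0.136 to 0.345 and log2 fold changes of the same sign. Tdg, Gm16867, Rbpj-ps3 and Nnt were called in 1 of 6, the fit without mouse 136, and in the others their adjusted p went up to 0.139, 0.141, 0.209 and 0.339. Slc12a1 was called without KO PBS mouse 136 or 137 and Gm14226 without KO PBS mouse 136 or WT PBS mouse 160, so in 2 of 6 fits each, with adjusted p up to 0.209 and 0.25 in the others. With 3 mice on each side the smallest two-sided p of an exact permutation test is 0.1, and none was run on single genes.

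The bleomycin mice gave a separate reading of the same genotypes. There 17 genes were called between KO BLM and WT BLM (0.0928%), 10 higher (0.0546%) and 7 lower, and 7 of the 12 genes were among them in the same direction: Tnfrsf23, Gm29787, Gm14719, Wdfy1, Gm9855, Gm14292 and Rbpj-ps3. The 3 KO BLM mice also lay wholly on the same side of the 3 WT BLM mice for 10 of the 12. Among all genes tested, 3468 did not overlap under PBS. Of those, 128 kept the same order under bleomycin, which is 0.699% of all genes. Tnfrsf23 was at 27.2, 29.0 and 31.1 CPM in WT BLM and 0.0918, 0.093 and 0.106 CPM in KO BLM (log2 fold change -8.18, standard error 0.49, adjusted p = 0.000118). Wdfy1 was at 17.6 to 19.2 CPM against 36.8 to 41.2 CPM (log2 fold change 1.06, standard error 0.12, adjusted p = 0.00697), close to its PBS values in both genotypes. Tdg (log2 fold change -1.16, adjusted p = 0.185), Nnt (0.76, adjusted p = 0.273) and Gm16867 (-6.19, adjusted p = 0.098) kept the sign and the separation but were not called there. Nnt was narrow in KO BLM, at 39.7, 40.5 and 40.6 CPM.

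The exceptions were Slc12a1 and Gm14226. Slc12a1 was at 0.235 to 0.456 CPM in WT BLM and 0.0707 to 0.337 CPM in KO BLM, overlapping (log2 fold change -0.44, standard error 0.51, adjusted p = 0.656). Gm14226 had the opposite order, with 0.0392 to 0.391 CPM in WT BLM and 3.78 to 5.14 CPM in KO BLM (log2 fold change 4.65, standard error 0.91, adjusted p = 0.131). The test of the difference between the genotype effects under the 2 treatments called 0 genes in edgeR, with a smallest adjusted p of 0.0604, which was reached by Gm14226, and 5687 genes at an unadjusted p under 0.05. DESeq2 called 3253, and edgeR without mouse 136 called 7470. For Slc12a1 the adjusted p of the difference was 0.0702. In the plot of both log2 fold changes these 2 genes have opposite signs under the 2 treatments. The others share a sign but not always a size, as with Gm14719 (11.11 under PBS, 8.87 under bleomycin) and Tnfrsf23 (-6.35 and -8.18).

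**Figure D3:**
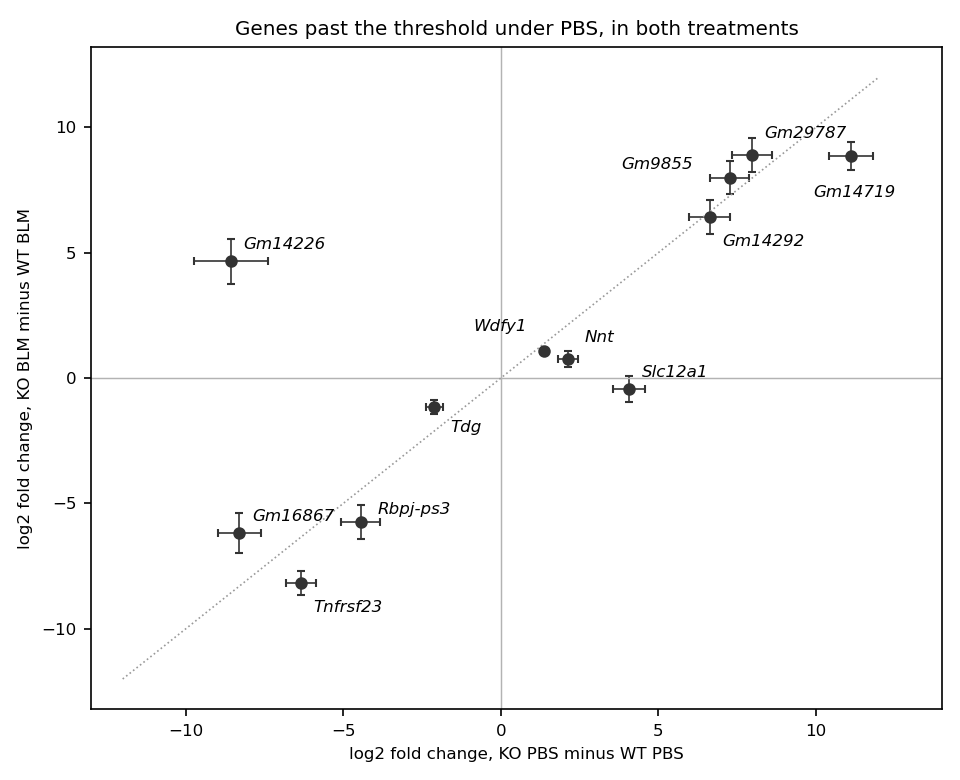
Log2 fold change of knockout over WT under PBS (horizontal) and under bleomycin (vertical) for the 12 called genes, with standard errors as bars and a dotted line of equal values. Points for 10 genes share a sign on both axes, while Gm14226 (-8.56 and 4.65) and Slc12a1 (4.07 and -0.44) do not.

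Genes near the called ones were also looked at, within 1 Mb on either side. Between 4 and 39 neighbours were tested for each gene. None of these neighbours was called by edgeR (0 for each of the 12). DESeq2 called 0 to 3 for each, where it called 3.69% of all genes it tested. At an unadjusted p under 0.05 were 0 to 12, where 20.4% of all genes were. The 12 were among the 39 around Gm14226. Around Tnfrsf23, 27 neighbours were tested. Of these 2, Tnfrsf26 and Cttn, separated in the same direction under both treatments, as did 0.699% of all genes. Cttn is the parent of the called copy Gm29787. Under PBS, 6 of the 27 neighbours of Tnfrsf23 did not overlap between KO and WT, a share near the 18.9% of all genes. Shank2, a synaptic scaffold gene there that was chosen after its values were seen, had 1.15, 1.22 and 0.917 CPM in WT PBS and 0.0332, 0.314 and 0.358 CPM in KO PBS (log2 fold change -2.18, standard error 0.51, edgeR adjusted p = 0.194, DESeq2 adjusted p = 0.000401), and a log2 fold change of 0.07 under bleomycin. Around Tdg, 9 of 26 tested neighbours did not overlap under PBS, again to be read against 18.9%. Of the 26, 3 did not overlap in the same direction under both treatments, where 0.699% of all genes did so. The closest of the 3, 1190007I07Rik, had 5.25 to 5.92 CPM in WT PBS and 1.99 to 2.95 CPM in KO PBS (log2 fold change -1.13, standard error 0.21, edgeR adjusted p = 0.148) and was also called under bleomycin (log2 fold change -1.45, adjusted p = 0.0411). Around Gm14226, 10 of 39 did not overlap under PBS, against 18.9% of all genes. Of the 39, 4 separated in the same direction under both treatments, against the same 0.699%. Among them was Bpifb5, a secreted lipid-binding protein gene (0 to 0.164 CPM in WT PBS, 0.417 to 0.532 CPM in KO PBS, log2 fold change 2.68, adjusted p = 0.194).

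Among keratin-associated protein genes, which build the hair shaft, a few on chromosome 7 were near zero in mouse 136 although its growing-hair genes were high. Krtap5-5, a relative chosen after its values were seen, was at 75.8 CPM in mouse 136 against 55.6 to 121 CPM in WT PBS. Krtap5-2, of lowest p in this list, had 49.0, 61.4 and 61.2 CPM in the WT PBS mice and 0.133, 0 and 0.0596 CPM in KO PBS mice 136, 137 and 139 (log2 fold change -9.77, standard error 2.0, edgeR adjusted p = 0.169). Krtap5-3 (17.4 to 26.2 CPM in WT PBS, 0.731 CPM in mouse 136) and Gm10153 (4.13 to 8.36 CPM in WT PBS, 0 in all 3 KO PBS mice), chosen after their values were seen, had the same order. These genes are much alike in sequence, so the assignment of their reads is uncertain. Under bleomycin KO BLM mouse 141 had 72.6 CPM of Krtap5-2.

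Growing-hair genes were split within the knockout group. Of 31 tested genes of the hair keratin and inner root sheath list 0 were called by edgeR or DESeq2. For many of them, among them Krt25, Krt71 and Lef1, DESeq2 gave no adjusted p, so it could not call these. In edgeR 0 were at an unadjusted p under 0.05, where 12.6% of all genes were higher and 7.75% lower. The median log2 fold change was -1.36 and became -9.41 without mouse 136. In that fit 29 were called lower, as were 18.8% of all genes. Tchh, trichohyalin of the inner root sheath, had 13800, 23100 and 16300 CPM in WT PBS, 27900 CPM in mouse 136 and 6.71 and 52.5 CPM in mice 137 and 139. Lef1, a Wnt effector of the hair matrix, was lower in all 3, with 114 to 123 CPM in WT PBS, 93.4 CPM in mouse 136 and 10 and 7.78 CPM in the others (log2 fold change -1.69, adjusted p = 0.287). The 57 tested keratin-associated protein genes had a median of -1.43 with 0 called by edgeR or DESeq2. Krtap5-2 and Krtap5-3 had no adjusted p from DESeq2. At an unadjusted p under 0.05, 2 were lower, where 7.75% of all genes were. Without mouse 136, 49 were called lower, against the same 18.8%. Krtap7-1, the most abundant, had 1150 to 3440 CPM in WT PBS, 2650 CPM in mouse 136 and 0 and 9.77 CPM in mice 137 and 139. With the hair covariate the log2 fold changes of Tchh (0.27) and Krtap7-1 (1.19) turned positive.

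For pigment genes mouse 136 was below WT as well. All 3 KO mice were below all 3 WT mice for 13 of the 13 melanin synthesis genes, where 10.3% of the genes tested had that order. Their sum was 1890, 1630 and 2090 CPM in WT PBS and 897, 134 and 132 CPM in KO PBS. None was called by edgeR (0 genes, 11 lower at an unadjusted p under 0.05, where 7.75% of all genes were). By DESeq2 6 were called lower (1.41% of all genes), while Mlana and Trpm1 had no adjusted p from it. The median log2 fold change was -2.59. Dct, dopachrome tautomerase and the most abundant, had 484, 424 and 551 CPM in WT PBS and 251, 46.0 and 41.8 CPM in KO PBS (log2 fold change -2.11, standard error 0.64, adjusted p = 0.204). Mc1r, the melanocortin receptor that sets the type of pigment, had 25.5, 18.1 and 25.6 CPM against 4.69, 0.629 and 0.477 CPM (log2 fold change -3.58, standard error 0.82, adjusted p = 0.194). Tyr, the rate-limiting tyrosinase, had 105, 88.1 and 129 CPM in WT PBS and 44.3, 3.06 and 1.82 CPM in KO PBS (log2 fold change -2.71, adjusted p = 0.213). Slc45a2, a melanosome transporter, behaved alike, with 25.6 to 35.8 CPM in WT PBS and 8.97, 1.0 and 0.745 CPM in KO PBS (log2 fold change -3.13, adjusted p = 0.204). The hair gene level of mice 137 and 139 moved with these values, and its part in them was not tested.

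Dividing-cell genes were lower in the same way. All 34 genes of the proliferation list were at an unadjusted p under 0.05 and lower, 33 of them without overlap, where 7.75% and 10.3% of all genes were, and the median log2 fold change was -1.13. By DESeq2 8 were called lower (1.41% of all genes), by edgeR 0, and by edgeR without mouse 136 all 34 (18.8% of all genes). The list summed to 2120, 1950 and 2160 CPM in WT PBS and to 1700, 844 and 620 CPM in KO PBS, so mouse 136 was nearest to WT but below it. Prc1, which bundles microtubules at cell division, had 51.9 to 60.1 CPM in WT PBS and 41.7, 25.3 and 20.1 CPM in KO PBS (log2 fold change -0.98, standard error 0.22, adjusted p = 0.194). Mki67, the Ki-67 antigen, had 305 to 359 CPM against 266, 83.4 and 62.3 CPM (log2 fold change -1.28, adjusted p = 0.214).

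The signalling lists of the follicle were lower in part. For their counts, 12.6% of all genes were higher and 7.75% lower at an unadjusted p under 0.05. DESeq2 called 2.28% of all genes higher and 1.41% lower. For the Hedgehog pathway 9 of 13 genes had all KO mice below all WT mice and 2 above, where 10.3% and 8.62% of all genes were, with 0 called by edgeR, 2 by DESeq2, 8 at an unadjusted p under 0.05 (2 higher, 6 lower) and a median of -0.62. Sufu, the inhibitor of the Gli factors, had 54 to 60 CPM in WT PBS and 47.0, 30.3 and 36.0 CPM in KO PBS (log2 fold change -0.57, standard error 0.15, adjusted p = 0.198). Smo, the signal transducer, had 120 to 131 CPM against 115, 88.7 and 102 CPM (log2 fold change -0.30, adjusted p = 0.234). For the Wnt pathway 16 of 52 genes lay below and 2 above, to be read against the same shares, with a median of -0.23, 0 called by edgeR (13 at an unadjusted p under 0.05) and 4 by DESeq2 (2 higher, 2 lower). Rspo2, the R-spondin that strengthens Wnt signals, had 3.11, 2.96 and 3.52 CPM in WT PBS and 0.565, 0.457 and 0.268 CPM in KO PBS. All 3 knockout mice including mouse 136 were low (log2 fold change -2.89, standard error 0.63, edgeR adjusted p = 0.194, DESeq2 adjusted p = 0.000526). Ctnnb1, beta-catenin itself, overlapped (log2 fold change -0.36, adjusted p = 0.345, turning to 0.04 with the hair covariate). Of 15 hair follicle stem cell genes 0 were called by edgeR, 1 was called higher by DESeq2 and 3 were higher at an unadjusted p under 0.05, with a median of -0.08. Krt15, the keratin of the follicle bulge, had 836 to 1040 CPM in WT PBS and 1110, 2510 and 3970 CPM in KO PBS (log2 fold change 1.44, standard error 0.46, edgeR adjusted p = 0.204, DESeq2 adjusted p = 0.0422).

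**Figure D4:**
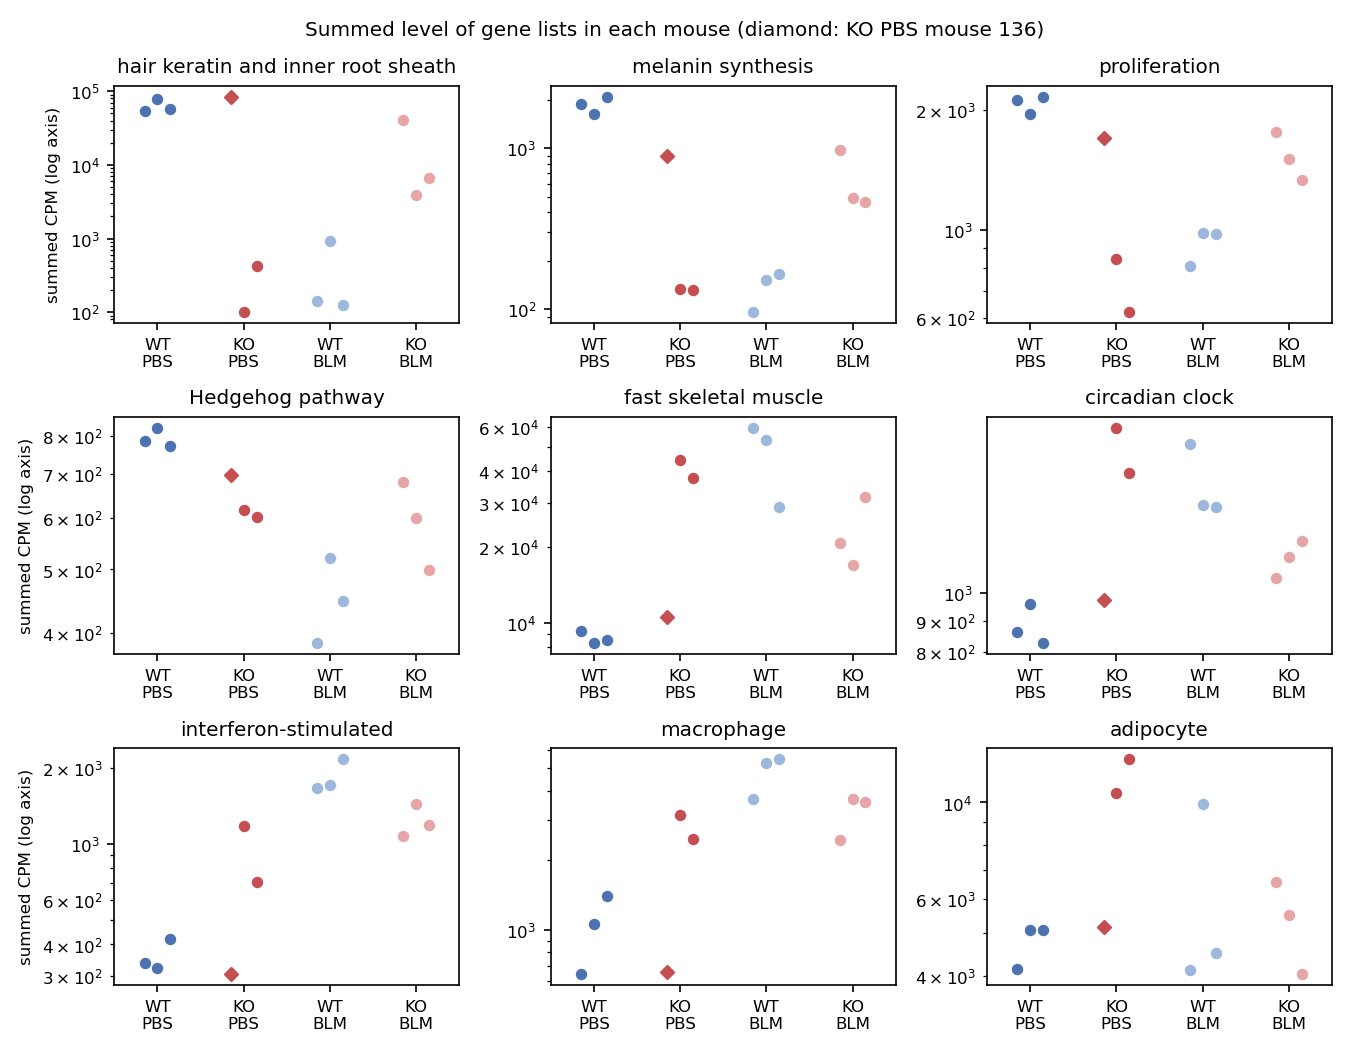
Summed CPM of 9 gene lists in each of the 12 mice on log axes, with KO PBS mouse 136 as a diamond. For growing hair the diamond (84100 CPM) is with the WT PBS mice, for melanin synthesis (897 CPM) and proliferation (1700 CPM) it lies between them and the other 2 KO PBS mice, and for fast muscle (10500 CPM) it is just above WT.

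Fast skeletal muscle genes were mostly higher in value in the knockout mice. Of 26 fast muscle genes 21 were higher at an unadjusted p under 0.05, 21 were called higher by DESeq2, where 12.6% and 2.28% of all genes were, and all KO mice were above all WT mice for 19 (8.62% of all genes). By edgeR 0 were called, and 22 were called higher without mouse 136 (17.8% of all genes). The list summed to 9250, 8280 and 8530 CPM in WT PBS and to 10500, 44200 and 37500 CPM in KO PBS, so mouse 136 was barely above WT and the other 2 far above. Casq1, the calcium store of fast fibres, had 68.4 to 108 CPM in WT PBS and 143, 435 and 473 CPM in KO PBS (log2 fold change 2.07, standard error 0.47, adjusted p = 0.194). Acta1, skeletal actin, had 1570 to 1740 CPM against 1780, 6550 and 6170 CPM (log2 fold change 1.56, adjusted p = 0.204). Slow and regenerating muscle genes were at a median of 0.43, with 0 of 18 called by edgeR or DESeq2. At an unadjusted p under 0.05, 1 was lower, where 7.75% of all genes were. This was Ankrd1, a stress-response gene of muscle, at 1.71 to 5.14 CPM in WT PBS and 0.685 to 1.0 CPM in KO PBS (log2 fold change -1.90, adjusted p = 0.224). Mb, myoglobin, overlapped (log2 fold change 0.64, adjusted p = 0.396, turning to -0.59 with the hair covariate). How much muscle each skin sample held is not given in the labels and cannot be told apart from a change in its genes.

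The genes that DESeq2 called and edgeR did not, without overlap, with a mean log2 CPM no lower than 1 and with a proper name, numbered 407 (212 higher, 195 lower), and the 5 largest changes each way are given here. Of these 10 genes Pvalb, Mc1r, Slc45a2 and Tyr belong to lists described above. On the higher side were Mstn (myostatin, the brake on muscle growth, log2 fold change 2.83), Tnn (tenascin-W, a matrix protein, 2.52), Mylk4 (a muscle myosin kinase, 2.47), Pvalb (the calcium buffer parvalbumin of fast fibres, 2.47) and Tmem233 (2.46). Mstn had 6.32 to 11.7 CPM in WT PBS and 18.1, 76.8 and 88.6 CPM in KO PBS. Pvalb had 86.3 to 155 CPM against 246, 919 and 759 CPM. On the lower side were Mc1r, Slc45a2 and Tyr, whose values are given with the pigment genes, and B3galt5, a glycosyltransferase gene (7.60 to 9.33 CPM in WT PBS, 2.19, 0.371 and 0.268 CPM in KO PBS, log2 fold change -3.16), and Syt4, a vesicle fusion gene (28.7 to 40.3 CPM against 12.1, 0.771 and 1.64 CPM, log2 fold change -2.89). In each of the 10, mouse 136 lay between the WT mice and the other 2 knockout mice.

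Circadian clock genes were higher in value in the knockout mice in part. Of 18 circadian genes 10 were higher (12.6% of all genes) and 1 lower at an unadjusted p under 0.05, 6 were called higher by DESeq2 (2.28%) and 0 by edgeR, and the median was 0.68. Dbp, a factor driven directly by the clock, had 52.5, 65.4 and 47.8 CPM in WT PBS and 79.4, 215 and 181 CPM in KO PBS (log2 fold change 1.52, standard error 0.31, edgeR adjusted p = 0.169, DESeq2 adjusted p = 0.00115). Tef, its relative and the most abundant of the list, had 139 to 160 CPM against 170, 392 and 314 CPM (log2 fold change 0.99, standard error 0.27, adjusted p = 0.198). The hour at which each mouse was killed is not given in the labels, so time of day and genotype cannot be told apart.

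Adipocyte genes summed to 4150, 5080 and 5090 CPM in WT PBS and to 5170, 10500 and 12600 CPM in KO PBS. Among 25 adipocyte genes 7 were higher at an unadjusted p under 0.05, 2 by DESeq2 and 0 by edgeR, with a median of 0.86, and all KO mice were above WT for 5 (8.62% of all genes). Of all genes tested, 12.6% were higher and 7.75% lower at that p, to be read beside the lists below too. DESeq2 called 2.28% of all genes higher and 1.41% lower. Car3, carbonic anhydrase 3 of fat and muscle, had 571 to 633 CPM in WT PBS and 756, 2430 and 2990 CPM in KO PBS (log2 fold change 1.76, standard error 0.50, edgeR adjusted p = 0.204, DESeq2 adjusted p = 0.0181). Scd1, the stearoyl-CoA desaturase, overlapped through mouse 136 (log2 fold change 0.92, adjusted p = 0.237). For PPAR-alpha and fatty acid oxidation 8 of 27 were higher at an unadjusted p under 0.05, 1 was called by DESeq2 and 0 by edgeR, with a median of 0.25. Hadha of mitochondrial oxidation overlapped (log2 fold change -0.05, adjusted p = 0.809, 0.06 with the hair covariate). Sebaceous gland genes had a median of 0.96, with 7 of 12 higher at an unadjusted p under 0.05 and 0 called by edgeR or DESeq2. Dgat2l6, a wax-making acyltransferase, had 6.56 to 7.44 CPM in WT PBS and 5.92, 27.1 and 24.6 CPM in KO PBS, so mouse 136 was below WT and the others above, and Elovl4 of long-chain fatty acids had mouse 136 within the WT range (log2 fold changes 1.46 and 0.81, edgeR adjusted p of 0.206 and 0.245). With the hair covariate both turned sign (-0.11 and -0.17). Cholesterol synthesis genes had a median of -0.31, with 4 of 23 lower at an unadjusted p under 0.05 and 0 called by edgeR or DESeq2. Srebf2, their main transcription factor, had 277 to 285 CPM in WT PBS and 253, 188 and 166 CPM in KO PBS (log2 fold change -0.48, adjusted p = 0.215).

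Macrophage and interferon-stimulated genes were higher in value in mice 137 and 139, while mouse 136 was near WT. Of 28 macrophage genes 5 were higher at an unadjusted p under 0.05, where 12.6% of all genes were. By either tool 0 were called and 0 were above WT in all 3 KO mice, with a median of 1.0. Without mouse 136, 25 were called higher, as were 17.8% of all genes in that fit. The macrophage genes summed to 644, 1060 and 1400 CPM in WT PBS and 661, 3140 and 2470 CPM in KO PBS. Lyz2, lysozyme, had 139 to 291 CPM against 147, 684 and 608 CPM (log2 fold change 1.10, adjusted p = 0.241), and Mpeg1, a pore protein of macrophages, 30.9 to 39.2 CPM against 25.6, 88.3 and 100 CPM (log2 fold change 0.98, adjusted p = 0.234). Interferon-stimulated genes had a median of 1.21, and 26 of 35 were higher at an unadjusted p under 0.05, against the same 12.6%. By DESeq2 4 were called higher (2.28% of all genes), by edgeR 0, and by edgeR without mouse 136 32, against the same 17.8%. Ifit3b, an antiviral effector, had 1.72 to 2.39 CPM in WT PBS and 2.03, 10.1 and 6.53 CPM in KO PBS (log2 fold change 1.67, standard error 0.47, edgeR adjusted p = 0.204). Stat2 of the interferon pathway overlapped (log2 fold change 0.45, adjusted p = 0.264). With the hair covariate the signs of Lyz2 (-0.23), Mpeg1 (-0.09) and Stat2 (-0.11) turned.

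T cell genes had a median of 0.83, with 5 of 23 higher and 1 lower at an unadjusted p under 0.05, 0 called by edgeR and 1 by DESeq2. Of all genes tested, 12.6% were higher and 7.75% lower at that p, to be read beside the lists below too. DESeq2 called 2.28% of all genes higher and 1.41% lower. Trac, the constant part of the T cell receptor alpha chain, had 0.713 to 1.09 CPM in WT PBS and 1.63, 2.40 and 3.16 CPM in KO PBS without overlap (log2 fold change 1.39, standard error 0.37, edgeR adjusted p = 0.198, DESeq2 adjusted p = 0.0258). Tcf7, a factor of T cells that hair follicles also use, was lower (49.8 to 58.5 CPM against 42.7, 21.0 and 17.3 CPM, log2 fold change -0.98, adjusted p = 0.205). Mast cell genes had a median of 1.01 (6 of 12 higher at an unadjusted p under 0.05), with Gata2, their transcription factor, at 2.93 to 3.99 CPM in WT PBS and 4.65, 11 and 9.0 CPM in KO PBS (adjusted p = 0.204), while Kit, which pigment cells share, was at 58.4 to 69.8 CPM against 66.3, 20.5 and 17.4 CPM (adjusted p = 0.292). Neutrophil genes had a median of 0.04 (1 of 14 lower at an unadjusted p under 0.05): Camp, cathelicidin, was at 0.304 to 0.382 CPM against 0.0332 to 0.200 CPM (adjusted p = 0.204), and Padi4, the most abundant, had 100 to 212 CPM in WT PBS, 283 CPM in mouse 136 and 19.2 and 21.2 CPM in the others (log2 fold change -0.42, 0.71 with the hair covariate). B cell and plasma cell genes had a median of 0.24 (1 of 9 higher), with Ighm, the heavy chain of IgM, overlapping (log2 fold change 0.71, adjusted p = 0.334) and Fcrla at a log2 fold change of 1.03 (adjusted p = 0.237). Chemokines and their receptors had a median of 0.73, with 9 of 54 higher (12.6% of all genes) and 1 lower (7.75%) at an unadjusted p under 0.05. DESeq2 called 2 of them higher (2.28% of all genes) and edgeR 0. Ackr2, a scavenger receptor for chemokines, had 4.90 to 5.50 CPM in WT PBS and 5.98, 14.1 and 17.0 CPM in KO PBS (log2 fold change 1.27, standard error 0.36, edgeR adjusted p = 0.204, DESeq2 adjusted p = 0.0309), and Cxcl12 overlapped (log2 fold change 0.34, adjusted p = 0.589). The NF-kB list was level at a median of 0.06 (2 of 31 higher and 1 lower). Traf3, a brake on the pathway, had 52.7 to 58.9 CPM in WT PBS and 47.1, 32.5 and 36.9 CPM in KO PBS (log2 fold change -0.51, adjusted p = 0.198), and Tab2 was at -0.08 (adjusted p = 0.653, 0.04 with the hair covariate).

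Matrix and fibrosis genes, where Thy-1 is most studied, were not called by edgeR between the PBS groups. Of 37 fibroblast matrix genes 0 were called by edgeR and 3 by DESeq2 (2 higher, 1 lower), 6 were higher and 1 lower at an unadjusted p under 0.05, and the median was 0.61. Of all genes tested, 12.6% were higher and 7.75% lower at that p, to be read beside the TGF-beta list below too. DESeq2 called 2.28% of all genes higher and 1.41% lower. The fibroblast matrix genes summed to 11800, 10400 and 13500 CPM in WT PBS and 9390, 26200 and 23600 CPM in KO PBS. Col3a1, type III collagen, had 1650 to 2480 CPM against 1490, 5320 and 4700 CPM (log2 fold change 0.84, standard error 0.58, adjusted p = 0.390), and its sign turned with the hair covariate (-0.18). Tagln, a contractile protein of smooth muscle and myofibroblasts, was lower in all knockout mice, with 120, 120 and 138 CPM in WT PBS and 87.2, 80.6 and 70.4 CPM in KO PBS (log2 fold change -0.67, standard error 0.13, edgeR adjusted p = 0.148, DESeq2 adjusted p = 0.000202). For the TGF-beta pathway 9 of 38 were higher and 1 lower at an unadjusted p under 0.05, 0 were called by edgeR and 4 by DESeq2 (3 higher, 1 lower), and the median was 0.01. Ltbp2, a binding protein of the elastic matrix, had 9.22 to 14.1 CPM in WT PBS and 16.1, 45.1 and 61.3 CPM in KO PBS (log2 fold change 1.75, standard error 0.44, edgeR adjusted p = 0.194, DESeq2 adjusted p = 0.00838), and Ltbp4 had 382 to 461 CPM against 562, 477 and 506 CPM (log2 fold change 0.31, adjusted p = 0.245).

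Integrin subunits, some of which bind Thy-1, had a median of 0.43 with 4 of 25 higher and 2 lower at an unadjusted p under 0.05, 0 called by edgeR and 1 by DESeq2. Of all genes tested, 12.6% were higher and 7.75% lower at that p, to be read beside the lists below too. DESeq2 called 2.28% of all genes higher and 1.41% lower. Itgb6, the epithelial integrin that activates TGF-beta, had 18.1 to 21.7 CPM in WT PBS and 16.3, 10.2 and 10.6 CPM in KO PBS (log2 fold change -0.69, standard error 0.18, edgeR adjusted p = 0.198, DESeq2 adjusted p = 0.0181), and Itgb1 overlapped (0.26, adjusted p = 0.375, -0.01 with the hair covariate). The 17 genes of the Thy-1 partner list, which shares integrins with the list before, had a median of 0.26, with 4 higher at an unadjusted p under 0.05, Fas being the one of lowest p. Hippo effectors and targets were at -0.10, with 2 of 25 higher and 2 lower. Vgll3, a cofactor of TEAD, had 25.6 to 40.9 CPM in WT PBS and 30.2, 61.1 and 61.9 CPM in KO PBS (log2 fold change 0.70, adjusted p = 0.221), and Amotl1 was at 0.10 (adjusted p = 0.757).

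Under bleomycin, in the other 6 mice, several of these lists had the opposite sign. The median log2 fold change of knockout over WT there was 5.72 for growing hair, 2.97 for melanin synthesis, 0.78 for proliferation and 0.65 for the Hedgehog pathway, against -0.03 over all genes tested. It was -1.04 for fast muscle, -0.63 for interferon-stimulated genes, -0.57 for macrophage genes, -0.54 for the fibroblast matrix and -0.36 for the clock. Growing-hair genes summed to 125 to 925 CPM in WT BLM and 3940 to 40500 CPM in KO BLM, so the genotype with the lower hair sum was not the same under the 2 treatments. The difference between treatments was not called by edgeR for any gene, as given above.

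The counts in the lists that follow are to be read against all genes tested. Of these 12.6% were higher and 7.75% lower at an unadjusted p under 0.05, and DESeq2 called 2.28% higher and 1.41% lower. In the epidermis, differentiation genes had a median of 0.40 with 1 of 36 lower at an unadjusted p under 0.05, 0 called by edgeR and 1 by DESeq2. That gene was Casp14, the caspase of the cornified layer, with 313, 291 and 344 CPM in WT PBS and 116, 117 and 91.6 CPM in KO PBS. The 3 knockout mice were alike and all well below WT (log2 fold change -1.55, standard error 0.37, edgeR adjusted p = 0.194, DESeq2 adjusted p = 0.00676). Krt10 of the upper layers had 1720 to 2790 CPM against 1700, 7080 and 5980 CPM (log2 fold change 1.23, adjusted p = 0.276, -0.44 with the hair covariate). Basal and stress keratins had a median of 0.35 with 1 of 10 higher, and Krt5 had 3570 to 3940 CPM in WT PBS and 4440 to 5930 CPM in KO PBS without overlap (log2 fold change 0.45, adjusted p = 0.408). Endothelial genes had a median of 0.59 (4 of 19 higher), with Prox1 of lymphatic vessels at a log2 fold change of 0.76 (adjusted p = 0.207) and Eng at 0.52 (adjusted p = 0.292). Schwann cell and nerve genes had a median of 0.57 (3 of 13 higher, 1 lower): Drp2 of myelin had 7.80 to 9.70 CPM in WT PBS and 10.3, 28.4 and 19.5 CPM in KO PBS (log2 fold change 1.12, adjusted p = 0.204), and Pmp22 was at 0.80 (adjusted p = 0.288). Erythrocyte genes, a sign of blood left in the sample, had a median of 0.48 with 0 of 6 at an unadjusted p under 0.05, and Hbb-bs and Hba-a1 overlapped (adjusted p = 0.593 and 0.539).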

How the data were processed

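RNA-Seq of skin was analysed from 12 mice, 3 per group, and the report concerns the 6 that received PBS. Per the methods, the authors prepared TruSeq stranded mRNA libraries, sequenced them on a NextSeq and used DESeq2. The submitters' processing notes name GRCm38.p6 and MultiQC 1.7. The aligner, counter, annotation and use of strand are not given in the sources used here. The authors deposited whole-number counts per gene symbol without normalization, 1 column per mouse.

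Groups came from the labels. Counts were filtered with filterByExpr (minimum count 10, minimum total 15), normalised by TMM and fitted in edgeR 4.0.16 (R 4.3.3) by the quasi-likelihood test with 4 group means. The Benjamini-Hochberg adjustment was over all 18311 genes tested, at a threshold of 0.05. A group with at most 3 counts in every mouse was taken as at the floor. Floors cover counting error only. A log2 CPM used a prior count of 2. Positions came from GENCODE M21 (98.2% of symbols had 1 position) and, for Nnt, from RefSeq. Near-identical copies were sought with blastn 2.17.0 in GENCODE M21 transcripts, using the longest transcript of a gene. Promoters came from RefSeq. Steps were tested on simulated counts. Figures were drawn with matplotlib 3.10.9.

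Genes were named by a rule: Thy1, every called gene, the 5 largest changes each way among further DESeq2 calls that meet the criteria given with them, for each of 35 lists the tested member of lowest p and the most abundant, and the gene of lowest p within 1 Mb of Thy1. Some genes that the rule picks are not reported here. Parents of copies, neighbours and other genes named were chosen after their values were seen. The members and lists were chosen with earlier results of these data known. Alternatives were DESeq2 1.42.0, RLE and upper-quartile factors, other filters, the 6 PBS mice alone, a hair covariate, and leaving out each of the 12 mice. For some genes tested by edgeR, DESeq2 gave no adjusted p, and these count as not called by it. Summing copies with parents was added after seeing the data.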

Additional observations from a re-analysis of the deposited data

Results flagged for a closer look

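For 21 of the genes named or examined beside them all 3 knockout mice lay on one side of all 3 WT mice under PBS and on the other side under bleomycin. The share of all genes tested with such an order was not counted, so the 21 cannot be read as an excess. Some of them, Mt1, Mt2 and Krtap5-3, were chosen after their values were seen. None of the 21 passed the threshold in edgeR's test of that difference, whose adjusted p ran from 0.0604 to 0.0937. Values are the log2 fold change of knockout over WT under bleomycin minus that under PBS.

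The largest values among the 21 were those of Krtap5-2 (16.46), Krtap5-3 (14.46) and Gm14226 (13.21). Below them were Slc45a2 at 6.69, Mc1r at 6.29, Tyr at 5.79, Syt4 at 5.59, Dct at 4.45 and B3galt5 at 4.33. Lef1 of the hair matrix was at 4.73. Smaller positive differences were those of Mt2 (2.61), Mki67 (2.30), Mt1 (1.95), Prc1 (1.44), Tagln (1.05), Sufu (0.80) and Srebf2 (0.76). Negative differences, of genes higher in knockout mice under PBS, were those of Drp2 (-2.32), Dbp (-1.96), Tef (-1.59) and Fas (-1.33).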

How the results depend on the processing

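No paired analysis was possible because no number is shared between mice of different groups. The 12 calls under PBS became 746 with DESeq2, 7664 with DESeq2 without KO PBS replicate 136, 2 with only the 6 PBS mice in the fit and 2 with copies summed with parents, and leaving out each of the 12 mice gave 6 to 6870, the highest without KO PBS replicate 136. Of the 12 genes, 0 were called in the fit of 6 mice, 7 with the hair covariate and 2 with copies summed, and 6 to 12 when a mouse was left out. The 7 genes called under both treatments became 30 with DESeq2, 0 in separate fits and 2 with copies summed, and 4 (without WT BLM replicate 147) to 69 (without KO PBS replicate 136) when a mouse was left out. The difference between treatments, 0 genes here, came to 3253 with DESeq2, 8183 with DESeq2 without KO PBS replicate 136, 20 without a filter, and 0 to 7470 when a mouse was left out (KO PBS mouse 136 gave the 7470, WT BLM mouse 146 gave 5, and KO BLM mouse 141 and WT PBS mouse 160 gave 1 each). Medians above 0 were found for 26 of 35 lists, 16 with the hair covariate and 25 to 26 when a mouse was left out. The sign turned with the hair covariate for Col3a1 (-0.18), Ctnnb1 (0.04), Dgat2l6 (-0.11), Elovl4 (-0.17), Hadha (0.06), Itgb1 (-0.01), Krt10 (-0.44), Krtap7-1 (1.19), Lyz2 (-0.23), Mb (-0.59), Mcl1 (-0.04), Mpeg1 (-0.09), Padi4 (0.71), Stat2 (-0.11), Tab2 (0.04) and Tchh (0.27), and, when a mouse was left out, for Hadha (-0.1 to 0.05), Padi4 (-2.84 to 0.08) and Tab2 (-0.13 to 0.01). None of these was called. The causes were not tested. RLE and upper-quartile factors moved none of these counts by over 1.5 times. With 3 mice per group and 1 of them apart, values rest on few animals, and 6 of the 12 calls were lost when 1 of several mice was left out. In the fit of 6 mice the 2 called genes were Krtap5-2 and Selenbp1.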

Other observations

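Some other genes separated the genotypes under both treatments and were chosen after their values were seen. E230029C05Rik, Gm44860 and Gm44861, which share a stretch of chromosome 7 on 1 strand, were all lower in knockout mice. E230029C05Rik had 15.9, 7.90 and 6.52 CPM in WT PBS and 0.565, 1.83 and 1.01 CPM in KO PBS, and 2.58 to 20.9 CPM against 0.954 to 1.21 CPM under bleomycin (log2 fold changes -3.14 and -3.39, edgeR adjusted p of 0.194 and 0.157). Gm44860 and Gm44861 lie inside it, so their reads may not be separable. The major urinary protein genes Mup7 and Mup8, members of a family of near-identical pheromone carriers whose reads are hard to assign, went in opposite directions: Mup7 was at 0.0255 to 0.0987 CPM in WT PBS and 0.598 to 1.49 CPM in KO PBS, and Mup8 at 0.230 to 0.459 CPM in WT PBS and at most 0.0298 CPM in KO PBS (edgeR adjusted p of 0.153 and 0.194). Under bleomycin Mup8 was called lower (log2 fold change -6.31, adjusted p = 0.0325).

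A pair of metallothionein genes, Mt1 and Mt2, which bind zinc and copper, was lower in all KO PBS mice including mouse 136. Mt2 had 316, 214 and 284 CPM in WT PBS and 131, 90.5 and 68.4 CPM in KO PBS (log2 fold change -1.49, standard error 0.27, edgeR adjusted p = 0.148, DESeq2 adjusted p = 0.00017). Under bleomycin its log2 fold change was 1.12 (adjusted p = 0.193). Ccnd1, the G1 cyclin D1, had 276, 221 and 273 CPM in WT PBS and 119, 133 and 89.6 CPM in KO PBS (log2 fold change -1.17, standard error 0.22, edgeR adjusted p = 0.148, DESeq2 adjusted p = 0.000239). Under bleomycin Ccnd1 overlapped between the genotypes (log2 fold change 0.20, edgeR adjusted p = 0.62). Tgif2, a repressor in TGF-beta signalling, had 12.6, 8.52 and 12.2 CPM in WT PBS and 4.69, 1.91 and 2.47 CPM in KO PBS (log2 fold change -1.88, edgeR adjusted p = 0.111). Under bleomycin Tgif2 overlapped (log2 fold change -0.01, edgeR adjusted p = 0.988). Its pseudogene Tgif2-ps2 was at 0 in all 6 WT mice and had 0.0707 to 0.490 CPM in all 6 knockout mice. Selenbp1, a selenium-binding protein gene, had 142, 119 and 124 CPM in WT PBS and 40.6, 39.4 and 40.6 CPM in KO PBS (log2 fold change -1.68, standard error 0.54, edgeR adjusted p = 0.204), with all 3 KO PBS mice alike. Under bleomycin Selenbp1 overlapped (log2 fold change 1.41, edgeR adjusted p = 0.27).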
